A study of Mus musculus with 18 samples.

Results

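H3K9me3 is a methyl mark on lysine 9 of histone H3 that marks heterochromatin. The peaks described here are those of H3K9me3 on chromosomes 1 to 19 in mouse embryonic fibroblasts, taken from the peak list of 1 Cre library and of 1 GFP library. Peaks on chromosomes X and Y and on unplaced sequence were left out. The Cre list gave 3516 of its 3985 peaks and the GFP list 9574 of its 10885 peaks. Together these are 13090 of the 225177 peaks in the 8 histone lists of the series.

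Cre cells are fibroblasts whose retinoblastoma gene Rb is carried as a conditional knockout and that were infected with an adenovirus carrying the Cre recombinase, which deletes the allele. GFP cells are fibroblasts with the same allele, infected with an adenovirus carrying green fluorescent protein, in which the allele is left intact. Both are of mixed B6;129 background, received no reprogramming factors, and were grown for at most 3 passages after infection. Whether every Cre cell had lost Rb was not analysed here, and a peak list gives no level of Rb. The labels number both immunoprecipitated libraries replicate 3. The Cre input is also labelled replicate 3, whereas the GFP histone input is labelled replicate 1, and the sources used here do not tell which input served as control.

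Heterochromatin proteins of the HP1 family bind H3K9me3 and compact the chromatin. The enzyme SETDB1 is brought to transposable elements and to clusters of zinc finger genes by KRAB zinc finger proteins and their cofactor TRIM28, while the SUV39H enzymes lay the mark down at satellite repeats near the centromeres. The Rb protein is known to bind SUV39H1 and HP1, which is the background to asking how the mark is distributed once Rb has been deleted. Since much of the marked sequence is repetitive, peaks depend on how reads with several matching positions were treated, which the sources used here do not give.

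The lists come from 1 library a side, so differences between Cre and GFP cells could not be set against replicates and are given without p-values. The number of reads behind each list was unknown. Intervals are exact 95% binomial intervals. They cover counting error only and treat each peak as an independent draw, although neighbours are related. Intervals that overlap do not show that the shares are equal. Positions are in build NCBIM37, counted from 1. The score is the authors' own value for each peak, has no stated unit, and served only to order or select peaks of the same list.

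The Cre list was shorter and its peaks were narrower. It held 3516 autosomal peaks against 9574 in the GFP list, so the Cre to GFP ratio was 0.367 (0.353 to 0.382). Cre peaks covered 4.64 Mb and GFP peaks 13.5 Mb. The median width was 886 bases in the Cre list, with quartiles of 692 and 1336, and 1056 bases in the GFP list, with quartiles of 837 and 1449. Peaks of at least 5000 bases were few in both lists, 92 in Cre and 209 in GFP cells. They made up 2.62% (2.11 to 3.20) of the Cre peaks and 2.18% (1.90 to 2.50) of the GFP peaks, so that their intervals overlapped. Such broad peaks took 14.7% of the covered bases in Cre and 12.9% in GFP cells. How far the shorter Cre list reflects fewer reads, weaker enrichment or fewer marked regions cannot be told apart with 1 library per condition.

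Most Cre peaks had a counterpart in the GFP list, and most GFP peaks had none in the Cre list. A counterpart is a peak of the other list that overlaps by at least 1 base. In the Cre list 2082 peaks, 59.2% (57.6 to 60.8), had a GFP counterpart and 1434 had none, which is 40.8% of the peaks compared. In the GFP list 1809 peaks, 18.9% (18.1 to 19.7), had a Cre counterpart and 7765 had none, which is 81.1%. The GFP share has a ceiling, because the Cre list is 36.7% as long as the GFP list. With the GFP list limited to its 3516 top-scoring peaks, the shares were 44.5% of Cre peaks and 35.6% of GFP peaks. When at least 50% of the peak had to be covered, 12.0% of GFP peaks had a counterpart. In bases, 2.83 Mb carried a peak in both lists, 61.1% of the Cre bases and 21.0% of the GFP bases.

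Sharing rose with the score rank in both lists, each of which was split into 5 classes of equal number by score. In the Cre list 40.8% (37.1 to 44.5) of the lowest class had a GFP counterpart, then 47.2%, 55.8% and 68.0%, and 84.4% (81.5 to 87.0) of the highest class. In the GFP list the shares were 5.95% (4.94 to 7.11) in the lowest class, then 8.56%, 12.6% and 17.2%, and 50.2% (47.9 to 52.4) in the highest. The GFP shares stayed low over the lower classes and stepped up in the highest one, whereas the Cre shares climbed more evenly. At the top of both lists nearly all peaks were shared. Of the 100 highest-scoring peaks, 96 Cre and 99 GFP peaks had a counterpart, and of the 1000 highest, 810 Cre and 663 GFP peaks.

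**Figure D1:**
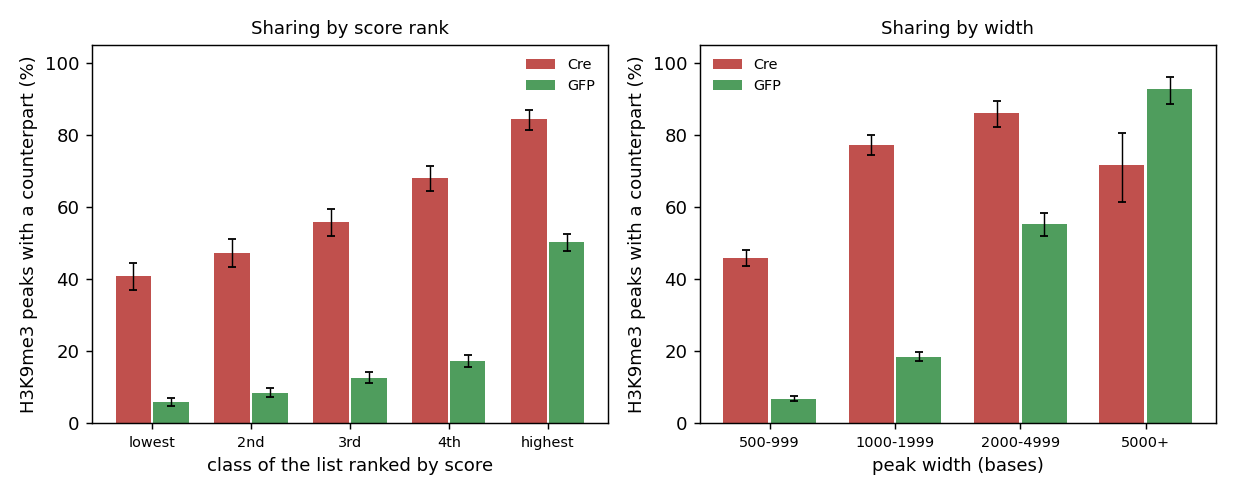
Percentage of autosomal H3K9me3 peaks with a counterpart in the other list, by class of the list ranked by score (left) and by width class in bases (right), for the Cre and GFP lists. Bars are shares and whiskers exact 95% binomial intervals; both lists climb with score, and among peaks of 5000 bases and over the Cre share (71.7%) lies below the GFP share (92.8%). The 22 Cre and 12 GFP peaks under 500 bases are not drawn.

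Width gave a similar order, with an exception among the broadest Cre peaks. Cre peaks of 500 to under 1000 bases had a counterpart in 45.8% of cases (43.7 to 48.0), those of 1000 to under 2000 bases in 77.2% and those of 2000 to under 5000 bases in 86.1% (82.1 to 89.4). For GFP peaks the shares were 6.88% (6.14 to 7.68), 18.5% and 55.2% (52.1 to 58.2) in the same classes. From 5000 bases upward the Cre share was 71.7% (61.4 to 80.6), with 66 of 92 peaks, while the GFP share was 92.8% (88.4 to 95.9), with 194 of 209. A wide peak has more bases on which to overlap. Within the highest score class the intervals of the Cre width classes overlapped, though only just between the broadest class and the next. The Cre shares were 83.4% (78.7 to 87.4) at 1000 to under 2000 bases, 89.1% (85.0 to 92.4) at 2000 to under 5000 and 76.2% (65.4 to 85.1) at 5000 or more. The GFP intervals lay apart, with 32.3% (29.1 to 35.6), 57.1% (53.8 to 60.3) and 94.8% (90.6 to 97.5).

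The 26 broad Cre peaks without a GFP counterpart mostly lay near GFP peaks. Of these, 17 were within 10 kb and 23 within 50 kb of one, at a median distance of 7.63 kb. By score, 19 of the 26 were in the highest class of the Cre list. Outside chromosome 4, 43 of 57 broad Cre peaks had a counterpart, 75.4% (62.2 to 85.9), against 90.9% (87.0 to 94.0) of Cre peaks of 2000 to under 5000 bases. On chromosome 4 the same classes had 65.7% (47.8 to 80.9) and 70.1% (59.4 to 79.5), with intervals that overlapped. The highest-scoring Cre peak without a counterpart was also the widest Cre peak, 22933 bases on chromosome 4 starting at 145723235, which scored 914 and lay 20.4 kb from a GFP peak. A Cre peak of 22413 bases on chromosome 12, starting at 20231963 and ending at 20254375, scored 91.0 and lay 1.53 kb from the nearest GFP peak. The most isolated of the leading Cre-only peaks was on chromosome 8 from 56198819 to 56209187. It spanned 10369 bases with a score of 303, had no GFP H3K9me3 peak within 460.9 kb, and overlapped no H3K4me3, H3Ac or H3K27me3 peak in either library.

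Among the GFP peaks without a Cre counterpart, the highest-scoring pair lay close together on chromosome 7. They started at 9182594 and at 9172662, scored 1037 and 686, and lay 5.23 and 3.04 kb from a Cre peak. Those next in score lay on chromosomes 6, 11 and 12. The peak on chromosome 6 between 124557294 and 124561255 scored 633 and lay 7.37 kb from a Cre peak. On chromosome 11 from 50959261 to 50964152 the score was 618 and the nearest Cre peak was 243.1 kb away. The one on chromosome 12 between 116850581 and 116857322, scored 548 and lay 0.603 kb from a Cre peak. Over all 1434 Cre peaks without a counterpart, 15.5% were within 1 kb and 58.1% within 50 kb of a peak of the denser GFP list, at a median distance of 24.8 kb. The 7765 GFP peaks without a counterpart were farther from a Cre peak, with 5.98% within 1 kb, 35.6% within 50 kb and a median distance of 159 kb.

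Where a peak was found in both lists, the Cre peak was usually the narrower one. There were 1338 pairs in which 1 Cre peak matched 1 GFP peak. Their median width was 940 bases in Cre and 1520 bases in GFP cells, and the Cre to GFP ratio of widths had a median of 0.683 with quartiles of 0.493 and 0.893. The Cre peak was wider in 212 pairs, 15.8% (13.9 to 17.9). It lay wholly within the GFP peak in 603 pairs, and the reverse held in 64. Spearman's rank correlation between the lists over the 1338 pairs was 0.44 for score and 0.54 for width, a description of regions that share their 2 libraries. Of the 134 pairs in the top 10% by GFP score, 63.4% were also in the top 10% by Cre score.

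Broad GFP peaks often matched several Cre peaks. Of shared peaks of at least 5000 bases, 9 of 66 in Cre cells, 13.6% (6.43 to 24.3), and 127 of 194 in GFP cells, 65.5% (58.3 to 72.1), had more than 1 counterpart. Cre peaks with a counterpart had 1 GFP peak in 93.9% of cases and 3 at most. GFP peaks with a counterpart had 1 Cre peak in 84.0% of cases, 2 in 11.8% and 3 or more in 4.15%, up to 8. A GFP peak on chromosome 4 from 145539750 to 145565753 held 5 Cre peaks that covered 98.1% of its 26004 bases. On chromosome 13 from 12915706 to 12936452 a GFP peak of 20747 bases held 4 Cre peaks covering 91.7%. In such a domain the Cre list has more peaks than the GFP list without covering more bases. Covered lengths are therefore given beside the peak counts of stretches and windows named in the text. Other shares and ratios of peaks along the chromosomes are counts only, unless lengths are given.

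H3K9me3 was shared less than the other marks at every rank examined. H3K4me3 marks active promoters, pan-acetylated H3 (H3Ac) marks active promoters and enhancers, and H3K27me3 is the mark of Polycomb repression. On the same autosomes, the share of peaks with no counterpart was 12.6% in Cre and 10.6% in GFP cells for H3K4me3, 15.4% in Cre and 26.8% in GFP cells for H3Ac, and 22.7% in Cre and 31.7% in GFP cells for H3K27me3. In the highest score class at least 99.35% of the peaks of each of these marks had a counterpart in either list, against 84.4% of the Cre and 50.2% of the GFP H3K9me3 peaks. The intervals of H3K9me3 did not overlap those of the other marks there. In the lowest class of the Cre list the marks were closer, 40.8% (37.1 to 44.5) for H3K9me3 and 47.4% (46.2 to 48.7) for H3K27me3. The differences were compared by their intervals only.

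**Figure D2:**
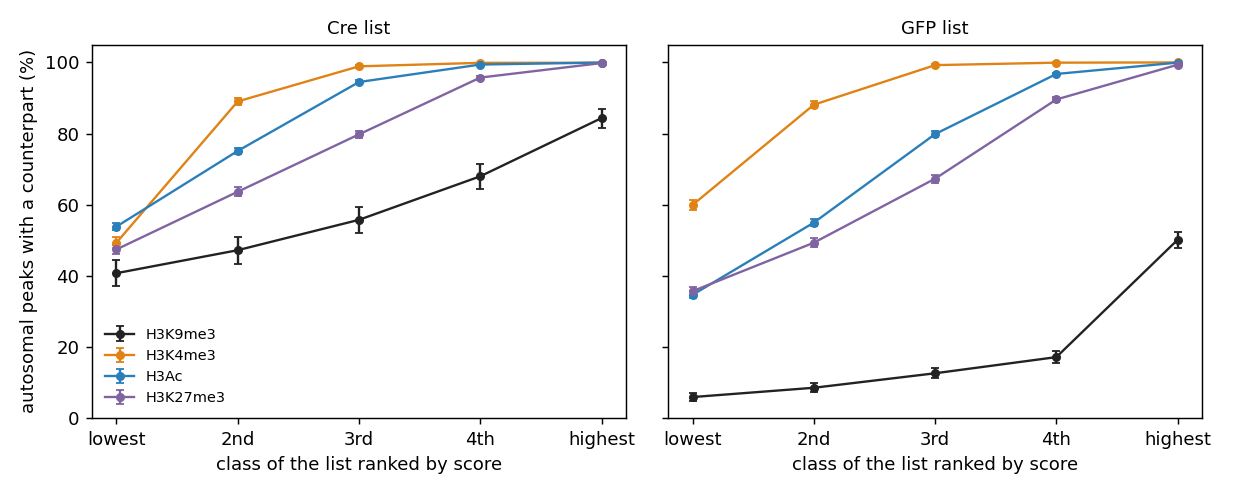
Percentage of autosomal peaks with a counterpart in the other condition's list of the same mark, by class of the list ranked by score, for the Cre lists (left) and GFP lists (right). Points are shares and whiskers exact 95% binomial intervals; the H3K9me3 line lies lowest in all 5 classes of both panels.

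Peaks clustered along the chromosomes in both libraries. The nearest neighbour of a peak in its own list was at a median of 17.1 kb in the Cre and 4.55 kb in the GFP list, and 46.6% (45.0 to 48.3) of Cre and 56.3% (55.3 to 57.3) of GFP peaks had a neighbour within 10 kb. A stretch was defined as at least 5 peaks of a list with gaps of at most 50 kb. The Cre list had 77 stretches with 1189 peaks, 33.8% (32.3 to 35.4) of the list, and the GFP list had 223 stretches with 3125 peaks, 32.6% (31.7 to 33.6). These shares did not differ beyond their intervals, and their order depended on the setting. With the GFP list limited to 3516 peaks they were 33.8% in Cre and 28.0% in GFP cells, and without chromosome 4 they were 26.6% and 30.6%. Bases were more concentrated than peaks, with 49.0% of the Cre and 43.7% of the GFP covered length inside stretches.

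A larger share of the Cre peaks lay in the densest windows. Of the 2111 windows of 1 Mb with a peak in either list, the densest 1% were taken, 21 windows chosen for each list. They held 27.7% (26.2 to 29.2) of the Cre peaks and 16.1% (15.4 to 16.9) of the GFP peaks. These are counts of peaks, and neither covered length nor merged peaks were used for them. With the GFP list limited to 3516 peaks the shares were 25.3% (23.9 to 26.8) in Cre and 19.3% (17.99 to 20.6) in GFP cells, and without chromosome 4 they were 21.7% (20.2 to 23.2) and 14.8% (14.1 to 15.6). In both settings fewer windows held a peak, so the 1% was fewer than 21 windows. The shares are therefore not like for like with those above, also for the unchanged Cre list in the first setting. Cre peaks fell in 1210 windows, of which 86 held no GFP peak, and GFP peaks in 2025 windows, of which 901 held no Cre peak. Sharing was higher inside stretches than outside. In the Cre list 78.2% (75.8 to 80.5) of peaks inside and 49.5% (47.5 to 51.6) of those outside had a counterpart, and in the GFP list 29.3% (27.7 to 30.9) and 13.8% (13.0 to 14.7). Within the lowest score class the shares were still 60.3% inside and 35.9% outside for Cre peaks, and within the highest class 84.5% and 84.2%, which did not differ beyond their intervals. For GFP peaks the gap was widest in the highest class, 63.8% inside and 38.2% outside. Peaks of that class were also wider inside stretches, with a median of 2716 bases against 1893 outside. Width was not held equal in these comparisons.

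Every one of the 77 Cre stretches held at least 1 GFP peak, and 65 of them overlapped a GFP stretch. Of the 223 GFP stretches, 44 held no Cre peak, 19.7% (14.7 to 25.6), and 57 overlapped a Cre stretch. Among the 82 GFP stretches with 10 peaks or more, 3 held no Cre peak. The stretch with the most GFP peaks outside chromosome 4 ran over 906.7 kb of chromosome 5, from 94671598 to 95578313. It held 18 Cre peaks covering 15.0 kb, against 129 GFP peaks covering 169 kb. By contrast, a stretch on chromosome 1 from 84951621 to 85343820 held 69 Cre peaks and 49 GFP peaks, covering 149 kb in Cre cells and 209 kb in GFP cells. On chromosome 13 from 12838198 to 13081601, 32 Cre and 33 GFP peaks covered 121 kb and 149 kb, and 31 of the 32 Cre peaks had a counterpart.

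**Figure D3:**
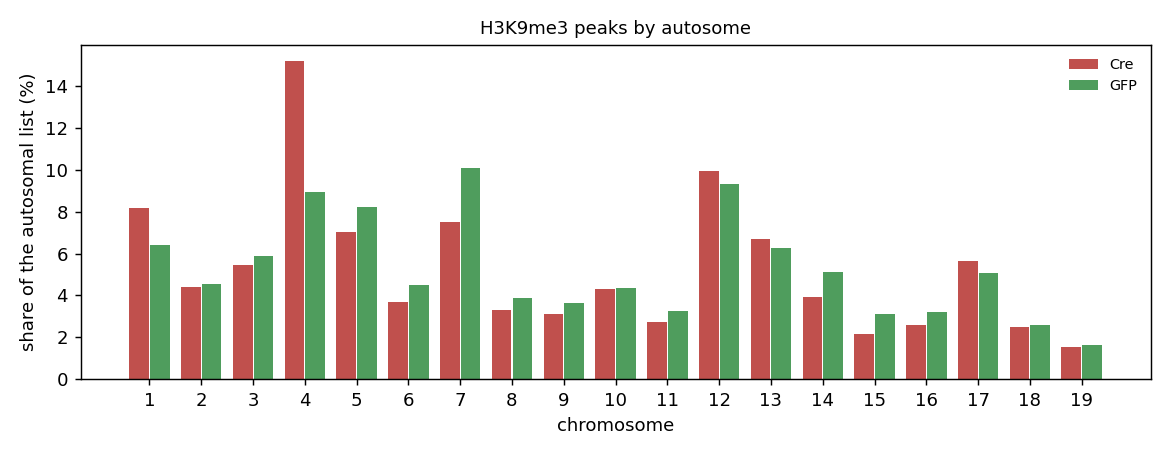
Share of the autosomal H3K9me3 list, in percent, that lay on each of the 19 autosomes, for the Cre list (left bar) and the GFP list (right bar). Chromosome 4 held 15.2% of the Cre and 8.92% of the GFP peaks, and chromosome 7 held 7.51% and 10.1%.

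The Cre and GFP lists differed in how peaks were divided among the autosomes. Chromosome 4 held 535 Cre and 854 GFP peaks, a count ratio of 0.626 (0.561 to 0.699), above that of every other autosome. Chromosome 1 followed with 288 and 612 peaks and a ratio of 0.471 (0.408 to 0.542). The lowest ratios were on chromosome 15, with 76 Cre and 298 GFP peaks (0.255, 0.196 to 0.329), and on chromosome 7, with 264 and 967 (0.273, 0.237 to 0.313). The share of GFP peaks with a Cre counterpart ranged over the autosomes from 11.1% on chromosome 15 to 32.4% on chromosome 4, and was 24.1% on chromosome 12. Distal chromosome 4 is known in the mouse for a large tandem cluster of KRAB zinc finger genes. No annotation of the files' build was used here, so no gene was assigned to a peak. Without chromosome 4 the ratio of the lists was 0.342.

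Windows of 1 Mb with at least 20 GFP peaks numbered 62 and held 40.9% of the Cre and 28.8% of the GFP peaks. They were selected by their GFP count alone, so windows rich in Cre peaks with few GFP peaks are not among them, and the ratios are a description. Their Cre to GFP ratio had a median of 0.439, with quartiles of 0.277 and 0.589. The median lay above the ratio of 0.367 for the whole lists. Together these windows held 1439 Cre and 2756 GFP peaks, and outside them the ratio was 0.305. In 10 windows, 16.1%, it was more than 2 times the ratio of the lists, and in 4 windows, 6.45%, it was less than the ratio of the lists divided by 2. The lowest ratio was on chromosome 14 from 42 to 43 Mb, with 1 Cre peak against 26 GFP peaks, which covered 1.05 kb and 25.5 kb. Low ratios also ran through neighbouring windows of chromosome 5. From 94 to 95 Mb there were 10 Cre and 81 GFP peaks, from 95 to 96 Mb 12 and 115, and from 96 to 97 Mb 5 and 27. In the same order they covered 8.34 and 101.5 kb, 9.53 and 146 kb, and 4.03 and 38.2 kb.

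Among these windows the highest ratios were where Cre peaks outnumbered GFP peaks. On chromosome 17 from 17 to 18 Mb there were 33 Cre and 22 GFP peaks, covering 68.1 kb and 70.0 kb. From 12 to 13 Mb of chromosome 13 there were 24 and 23 peaks, covering 91.1 kb and 101 kb, and from 67 to 68 Mb of the same chromosome 23 and 22 peaks, covering 35.6 kb and 42.3 kb. Chromosome 1 had 58 and 41 peaks from 85 to 86 Mb, covering 129 kb and 171 kb. Chromosome 4 had 171 and 130 from 146 to 147 Mb, covering 386 kb and 511 kb. Cre peaks outnumbered GFP peaks in 5 of the 62 windows. Only in the chromosome 4 window did the interval of the ratio, 1.32 (1.04 to 1.67), leave out equal counts. In each of these windows that is named here the Cre peaks covered fewer bases than the GFP peaks.

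**Figure D4:**
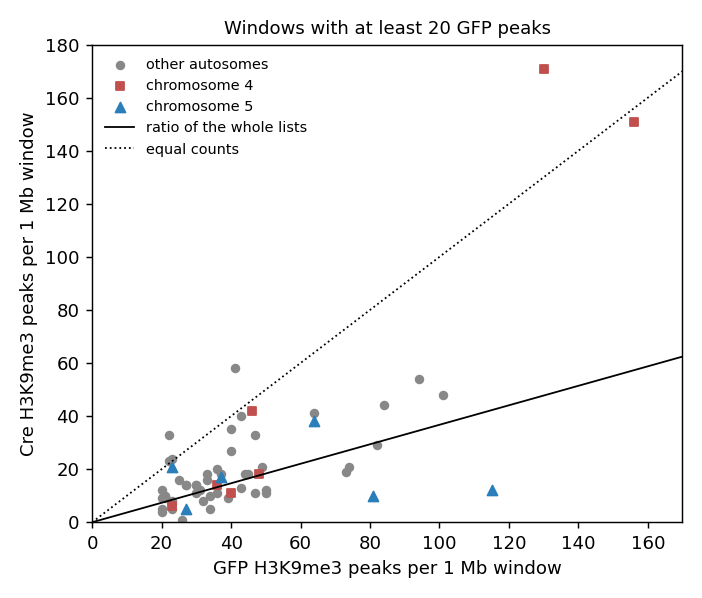
Number of Cre against GFP H3K9me3 peaks in each 1 Mb window with at least 20 GFP peaks (1 point a window), with chromosomes 4 and 5 marked. The solid line is the ratio of the whole lists, 0.367, and the dotted line marks equal counts; 2 windows of chromosome 4 stand at 151 and 171 Cre peaks, and 2 of chromosome 5 lie far below the solid line.

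The strongest H3K9me3 peaks of both libraries lay in the chromosome 17 window. The highest-scoring Cre peak lay between 17220034 and 17228479, scoring 2240, and the next between 17278374 and 17286754, scoring 2135. The 2 highest-scoring GFP peaks were at the same places in the other order, one between 17276303 and 17286894, scoring 3214, and one between 17219184 and 17231045, scoring 2631. In this window 7 GFP peaks had scores of at least 500, a minimum chosen after the values were seen, and these followed one another at similar distances. Their starts lay 62.2, 48.4, 57.1, 63.1, 57.9 and 55.3 kb apart, and their widths ran from 3269 to 11862 bases. All 7 had a Cre counterpart. Each also overlapped H3K4me3 in both libraries, and none overlapped H3Ac or H3K27me3 in either.

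H3K4me3 was the mark that most often coincided with H3K9me3. In the Cre library 15.2% (14.0 to 16.4) of H3K9me3 peaks overlapped an H3K4me3 peak, 535 of 3516, and in the GFP library 10.6% (10.0 to 11.3), 1018 of 9574. This order of the libraries turned round when the GFP list was limited to its 3516 top-scoring peaks, 15.2% in Cre and 19.6% in GFP cells. At a minimum score of 100 in all lists it was 29.5% in Cre and 13.8% in GFP cells. That minimum also removed H3K4me3 peaks, and it need not be equally strict in both libraries. H3Ac was nearly absent, at 0.626% (0.393 to 0.946) of Cre and 0.449% (0.325 to 0.605) of GFP H3K9me3 peaks. H3K27me3 overlapped 2.30% (1.83 to 2.86) of the Cre and 2.60% (2.29 to 2.94) of the GFP peaks. No other mark was found at 83.5% of the Cre and 88.8% of the GFP peaks.

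The overlap with H3K4me3 was concentrated in the strongest H3K9me3 peaks. In the Cre list it rose from 4.26% (2.89 to 6.03) of the lowest score class to 44.5% (40.8 to 48.3) of the highest. In the GFP list it rose from 4.13% (3.28 to 5.12) to 26.6% (24.6 to 28.6). Among the 100 highest-scoring H3K9me3 peaks, 92 Cre and 92 GFP peaks overlapped H3K4me3 of their own library. H3K4me3 was present in both libraries at 92 of the top 100 Cre peaks and 78 of the top 100 GFP peaks. Beside this, 0 of the top 100 Cre peaks and 1 of the top 100 GFP peaks overlapped H3Ac, where exact intervals reach up to 3.62% and 5.45%. No peak list of an input library was used here, so these places were not compared with input.

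**Figure D5:**
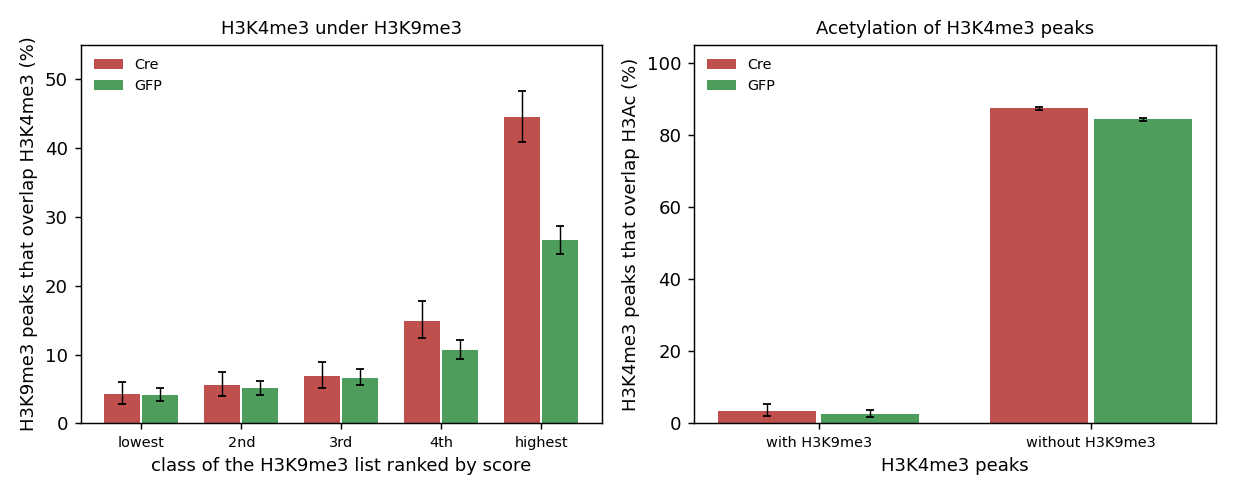
Left, percentage of H3K9me3 peaks that overlap an H3K4me3 peak of the same library, by class of the H3K9me3 list ranked by score. Right, percentage of H3K4me3 peaks that overlap H3Ac, for those with and without an overlapping H3K9me3 peak. Bars are shares (Cre left of GFP) and whiskers exact 95% binomial intervals; H3K4me3 peaks with H3K9me3 carry H3Ac in 3.53% of Cre and 2.70% of GFP cases.

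H3K4me3 peaks that lay on H3K9me3 lacked the acetylation found at most H3K4me3 peaks. In the Cre library 538 H3K4me3 peaks overlapped H3K9me3, and 19 of them, 3.53% (2.14 to 5.46), overlapped H3Ac, against 87.4% (86.9 to 87.8) of the 21312 others. The GFP library gave 29 of 1075 peaks, 2.70% (1.81 to 3.85), against 84.3% (83.8 to 84.8) of the 21892 others. These H3K4me3 peaks were weak, with a median score of 132 against 957 for the others in the Cre list and 113 against 645 in the GFP list. The lack of H3Ac was also seen among the stronger ones. With an H3K4me3 score at or above the median of the list, a split chosen after the values were seen, 21.6% (11.3 to 35.3) of 51 Cre and 14.5% (8.55 to 22.5) of 110 GFP peaks carried H3Ac, against 99.8% and 99.6% of those without H3K9me3. The split did not match strength. Above it the median H3K4me3 score was 1199 with and 3100 without H3K9me3 in the Cre list, and 944 and 2392 in the GFP list. Both marks on 1 region are known from imprinted control regions, whose parental copies differ, and bulk peaks do not tell copies or cells apart.

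Shared H3K9me3 peaks carried H3K4me3 more often than those found in 1 list. Of Cre peaks with a GFP counterpart 19.6% (17.9 to 21.4) overlapped Cre H3K4me3, and of those without 8.86% (7.44 to 10.4). Among GFP peaks the shares were 28.8% (26.7 to 30.9) with and 6.40% (5.87 to 6.97) without a Cre counterpart. Shared peaks are wider, but the GFP contrast also held within width classes, with 23.8% against 7.89% at 1000 to under 2000 bases and 37.5% against 11.4% at 2000 to under 5000. Sharing and overlap with H3K4me3 both rose with score, and score was not held equal in these comparisons. For the narrower Cre peaks the shares with Cre H3K4me3 lay closer and their intervals overlapped. At 500 to under 1000 bases, which is most of the list, they were 8.78% (7.06 to 10.8) with and 6.09% (4.76 to 7.65) without a counterpart. At 1000 to under 2000 bases the Cre shares were 17.9% (15.3 to 20.9) with and 20.9% (15.7 to 26.9) without. At 2000 to under 5000 bases the Cre shares with Cre H3K4me3 were 47.0% (41.5 to 52.7) and 9.62% (3.20 to 21.0). H3K27me3 did not differ beyond its intervals, at 50 of 2082 Cre peaks with and 31 of 1434 without a counterpart, and at 2.76% and 2.56% of GFP peaks.

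Few of the regions with H3K9me3 in the GFP list only carried another mark in the Cre list only. Of the 7765 GFP peaks without a Cre counterpart, 47 overlapped H3K4me3 in Cre cells only (0.605%), 4 overlapped H3Ac in Cre cells only (0.0515%) and 32 overlapped H3K27me3 in Cre cells only (0.412%). In the other direction, 406 overlapped H3K4me3 in GFP cells only (5.23%), 11 H3Ac and 70 H3K27me3. H3K4me3 was also more often in GFP cells only at the 1809 GFP peaks with a Cre counterpart. Of these, 55 overlapped it in Cre cells only (3.04%) and 184 in GFP cells only (10.2%). Of the 1434 Cre peaks without a GFP counterpart, 85 overlapped H3K4me3 in Cre cells only (5.93%) and 53 in GFP cells only (3.70%). Of the 2082 Cre peaks with a GFP counterpart, 61 overlapped H3K4me3 in Cre cells only and 212 in GFP cells only.

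H3K27me3 coincided more often with H3K9me3 peaks outside stretches than inside. It overlapped 3.14% (2.47 to 3.93) of Cre peaks outside and 0.673% (0.291 to 1.32) inside stretches, and 3.58% (3.14 to 4.06) and 0.576% (0.342 to 0.909) of GFP peaks. The 3 highest-scoring H3K9me3 peaks with H3K27me3 in each list also carried H3K4me3. On chromosome 19 the Cre peak between 61257112 and 61262318, scoring 545, and the GFP peak between 61257138 and 61262872, scoring 981, overlapped both marks in both libraries. The Cre peak on chromosome 1 from 173005504 to 173007853 had an H3K9me3 score of 555, an H3K27me3 score of 3100 and an H3K4me3 score of 2224. H3Ac was found under a pair of Cre peaks on chromosome 8, from 19883419 to 19889732 and from 19787662 to 19793408. Their H3K9me3 scores were 233 and 223, H3Ac was present in both libraries, and no H3K4me3 peak lay there in either.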

How the data were processed

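Chromatin immunoprecipitation sequencing gave 8 histone peak lists, of which the Cre and GFP H3K9me3 lists were compared and those of the other 3 marks set beside them. Samples were grouped by their labels. The series has 18 samples, and the RNA, Rb and input libraries were not analysed here. Build NCBIM37 and, among the tools, MACS 1.4.1, bedtools 2.16.2, BWA and SAMtools 0.1.18 are named per the submitters' processing notes. Aligner settings, duplicate handling and thresholds are not given in the sources used here. The deposited score of each peak, the authors' own value, has no header and no unit, and 50 was its lowest value in both H3K9me3 lists. Peak names begin with the name of MACS, and each list belongs to 1 library, so that no replicates were pooled.

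Peaks on chromosomes 1 to 19 were kept. From these, overlaps of at least 1 base, covered bases, distances, stretches and 1 Mb windows (by peak start) were computed with pandas 2.3.3, SciPy 1.17.1 and NumPy 2.4.6 under Python 3.11.15, and drawn with matplotlib 3.10.9. Overlap code was tested on simulated data. Peaks, lists and settings were chosen with earlier results of these data known. The rule for named regions took the highest-scoring and widest peaks of each list, the leading peaks without a counterpart or over another mark, the stretches with the most peaks, and the windows with the most peaks or extreme ratios. The text names some of these. Alternatives were a minimum score of 100, merging within 1000 bases, 50% overlap, counterparts within 1000 bases, equal numbers of top-scoring peaks, leaving out chromosome 4, stretch gaps of 20 and 100 kb, and windows of 500 kb and 2 Mb. For the densest windows, equal numbers and leaving out chromosome 4 were added after seeing the data. Genes and sequences were not assigned, because no annotation or genome of build NCBIM37 was used here.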

Additional observations from a re-analysis of the deposited data

Results flagged for a closer look

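H3K9me3 peaks also lay on sequence that is not placed on a chromosome, which the comparisons above do not use. Cre cells had 226 such peaks and GFP cells 344, listed here because the data lie outside the comparisons. They made up 5.67% (4.97 to 6.44) of the Cre list and 3.16% (2.84 to 3.51) of the GFP list, a ratio of shares of 1.79 (1.52 to 2.11, a log-normal interval). The ratio of counts was 0.657 (0.553 to 0.779), against 0.367 on the autosomes. On the unplaced sequence of chromosome 8 the counts were 42 in Cre and 40 in GFP cells, and on that of chromosome 1 they were 91 and 103.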

How the results depend on the processing

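With 1 library per mark and condition, no result has a replicate check and the depth of the libraries is unknown. No paired analysis was possible because each group has 1 library. Of 82 alternative values for 26 results, 28 stayed within the interval of the value reported and 54 moved outside it. Equal numbers leave the Cre list unchanged. Its share in stretches and its overlaps with the other marks could therefore not move in that setting, and they are counted among the 28. The order of Cre and GFP turned round for the H3K4me3 overlap with equal numbers of peaks, and for the share in stretches with gaps of 100 kb, with merging and without chromosome 4. It also turned for the difference between score classes with 50% overlap and without chromosome 4, and for that between width classes with 50% overlap. The cause of the moves was not tested, except that some follow from fewer peaks or a stricter overlap. With overlap of at least 50% of the peak, 54.3% of Cre and 12.0% of GFP peaks had a counterpart. The highest score class then exceeded the lowest by 26.5 points in the GFP list, and peaks of at least 2000 bases exceeded those under 1000 by 41.7 points in Cre and 32.3 in GFP cells. H3K4me3 overlapped 12.5% of Cre and 8.05% of GFP peaks, H3Ac 0.199% and 0.178%, and H3K27me3 2.06% of GFP peaks, and shared GFP peaks exceeded the others by 16.1 points for H3K4me3. Counting peaks within 1000 bases as counterparts gave 65.5% in Cre and 23.7% in GFP. At a minimum score of 100 the ratio of counts was 0.301 and of covered length 0.321, 72.4% of Cre peaks had a counterpart, the score classes differed by 38.2 points in Cre and 52.2 in GFP, the GFP width classes by 36.3 points, and H3K4me3 overlapped 29.5% of Cre and 13.8% of GFP peaks. Merging within 1000 bases gave 56.3% of Cre peaks with a counterpart, and 23.9% of Cre and 25.0% of GFP peaks in stretches. Equal numbers of top-scoring peaks gave counterparts for 44.5% of Cre and 35.6% of GFP peaks, 28.0% of GFP peaks in stretches, differences between inside and outside stretches of 35.6 points in Cre and 28.2 in GFP, and GFP overlaps of 19.6% with H3K4me3 and 3.04% with H3K27me3. Without chromosome 4 the ratios were 0.342 for counts and 0.311 for length, 57.3% of Cre and 17.6% of GFP peaks had a counterpart, the score classes differed by 48.6 points in Cre and 40.4 in GFP, the Cre width classes by 44.6 points, 26.6% of Cre and 30.6% of GFP peaks lay in stretches, and the GFP difference between inside and outside was 12.4 points. Gaps of 20 kb put 26.8% of Cre and 23.6% of GFP peaks in stretches, and gaps of 100 kb 40.7% and 42.8%, with a GFP difference between inside and outside of 17.6 and 12.5 points. The densest windows held 15.3% of GFP peaks at 500 kb, and 25.0% of Cre and 14.8% of GFP peaks at 2 Mb. With 2 settings chosen after seeing the data, they held 25.3% of Cre and 19.3% of GFP peaks with equal numbers, and 21.7% and 14.8% without chromosome 4. In these 2 settings the densest 1% was also of fewer windows.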
